A study of Mus musculus with 480 samples.

Results

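The 36 cell cycle genes described here were chosen by name, as genes whose RNA is known to be made mainly while cells copy their DNA or divide, and were looked up among the 53379 genes of a count table of 480 single mouse lung cells. All 36 were found. By textbook role, 14 act mainly around S phase, when DNA is copied, and 22 act in G2 and M phase, when the cell prepares for and carries out division. The rule uses gene names and not measured values, though earlier results of these data were known when the genes were listed.

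The cells came from 3 reporter lines, 160 cells per line, and each cell had been sorted for the red fluorescent protein tdTomato from digested lung. BASCs-Tracer cells carried Sftpc-DreER, Scgba1a1-CreER (the spelling of the labels, for Scgb1a1) and the reporter R26-RSR-LSL-tdtomato, so that both recombinases must act before a cell is marked. Scgb1a1-TD cells carried Scgba1a1-CreER with R26-tdtomato and mark cells in which the promoter of the airway secretory gene Scgb1a1 has been active. Sftpc-TD cells carried Sftpc-DreER with R26-RSR-tdtomato and mark cells in which the promoter of the surfactant gene Sftpc has been active. The label of a recombinase reporter stays with the descendants of a marked cell, so it records past as well as present promoter use. Each cell was annotated by the submitters as a bronchioalveolar stem cell (BASC), club cell, alveolar type 2 (AT2) cell or ciliated cell. No animal, age or treatment was given in the labels, so each line counts as 1 sample, no test between groups was run, and intervals cover counting error only.

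Cells that have left the cell cycle keep most of these genes silent through repressor complexes of the Rb family. In S phase the E2F factors switch on the MCM helicase subunits, the nucleotide synthesis enzymes and the sliding clamp Pcna. In G2 and M phase the MuvB complex with B-Myb and FoxM1 switches on cyclins, mitotic kinases, kinesins and checkpoint proteins, and the CHR element of their promoters is one of its known landing sites. Club, AT2 and bronchioalveolar stem cells of the uninjured adult lung divide rarely, and ciliated cells are non-dividing cells that reuse parts of the mitotic programme to multiply their centrioles while they mature.

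The promoters of members with different patterns below are shown first, each as the 250 bases before the RefSeq transcription start (build GRCm38.p6, minus strand for all 4). Capitals mark the CHR letters TTTGAA, the CCAAT box and the E2F letters TTCCCGC, with the variant TTGGCGC and the variant TTCGCGC, on either strand. Top2a and Cdk1 were high in all 3 cells that expressed many members, Mki67 was high in 2 of these 3, and Mcm6 was at 0 in each of them. The Top2a stretch lies at chr11:99024190-99024439, that of Cdk1 at chr10:69352913-69353162, that of Mki67 at chr7:135716380-135716629 and that of Mcm6 at chr1:128359706-128359955.
Top2a: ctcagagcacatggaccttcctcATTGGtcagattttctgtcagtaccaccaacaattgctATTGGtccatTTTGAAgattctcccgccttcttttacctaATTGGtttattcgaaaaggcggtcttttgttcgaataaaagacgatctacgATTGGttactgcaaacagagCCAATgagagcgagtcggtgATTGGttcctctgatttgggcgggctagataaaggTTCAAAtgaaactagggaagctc
Cdk1: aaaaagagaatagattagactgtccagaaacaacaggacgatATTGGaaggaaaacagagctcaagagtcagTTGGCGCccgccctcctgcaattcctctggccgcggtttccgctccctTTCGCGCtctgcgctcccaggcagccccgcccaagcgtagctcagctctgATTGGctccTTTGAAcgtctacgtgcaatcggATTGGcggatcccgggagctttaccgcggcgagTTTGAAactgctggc
Mki67: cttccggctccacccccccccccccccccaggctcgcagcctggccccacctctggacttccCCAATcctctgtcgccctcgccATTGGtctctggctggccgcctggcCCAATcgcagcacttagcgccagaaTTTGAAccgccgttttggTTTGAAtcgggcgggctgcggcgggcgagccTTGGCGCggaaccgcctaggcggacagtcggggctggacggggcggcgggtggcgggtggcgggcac
Mcm6: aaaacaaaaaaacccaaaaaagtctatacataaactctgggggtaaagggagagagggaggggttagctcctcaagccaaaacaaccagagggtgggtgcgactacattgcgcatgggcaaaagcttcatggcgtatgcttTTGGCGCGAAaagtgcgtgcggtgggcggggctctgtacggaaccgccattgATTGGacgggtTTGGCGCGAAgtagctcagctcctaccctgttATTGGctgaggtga

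The RefSeq table held promoters for 30 of the 36 members, and Mcm4, Ccne2, Ccna2, Aurkb, Tpx2 and Kif20a were not matched. Over windows of 250 bases before to 50 bases after the start, the CHR letters were present for 14 of 18 G2 and M phase members and 2 of 12 S phase members (Cdc45 and Mcm2), beside 20.2% of all 27025 genes in the table. The CCAAT box was present for 16 of 18 G2 and M phase members and 9 of 12 S phase members, beside 41.1% of all genes. E2F letters were present for 4 of 18 G2 and M phase members (Ccnb1, Cdk1, Hmmr and Mki67) and 5 of 12 S phase members (Mcm3, Mcm5, Mcm6, Mcm7 and Uhrf1), beside 9.20% of all genes. Per promoter, of which a gene can have several, the 3 motifs were in 17.9%, 37.4% and 8.07% of all 32851 promoters. All 14 G2 and M phase members with the CHR letters also had a CCAAT box. The E2F letters can overlap each other, and 3 of 22 E2F matches, in Ccnb1 and Mcm7, share bases with another motif. A match is a description of the letters in this window and not a measured binding site.

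Reads per cell had a median of 1000460 (range 3379 to 3781974), and the 468 cells with 100000 reads or more were used for counts of cells. A member is called high in a cell when it reached 20 CPM, counts scaled to 1e6 gene-assigned reads per cell. By this measure most cells expressed few members. Of the 468 cells, 28.2% had no member high, 33.8% had 1, 25.6% had 2, 38 cells had 3 and 13 cells had 4. A further 4 cells had 5 to 7 members high. The last 3 cells stood apart from these, with 16, 22 and 29 members high. The median cell had 1 S phase member and 0 G2 and M phase members high, and 355 cells (75.9%) had none of the 22 G2 and M phase members high.

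The 3 cells with 12 or more members high were 0.641% of all cells (Clopper-Pearson 95% interval 0.132 to 1.86%). All 3 carried the Scgb1a1-TD label, where they were 1.92% of the cells of sufficient depth (0.398 to 5.52%). In BASCs-Tracer 0 cells reached 12 members, with a Clopper-Pearson upper limit of 2.38%, and in Sftpc-TD 0 did, with an upper limit of 2.29%. These intervals cover the counting of cells in 1 sample per line, so the shares are set side by side and no difference between lines was tested. Among the annotated BASCs, the count was 0 in BASCs-Tracer, with an upper limit of 2.74%, 0 of 37 in Scgb1a1-TD and 0 of 11 in Sftpc-TD. With every cell thinned to 100000 reads and a member counted at 2 reads, the same 3 cells held 17, 22 and 29 members and the next cell 7. The next cells down were an AT2 cell of BASCs-Tracer and a club cell of Scgb1a1-TD with 7 members high each, a BASC of BASCs-Tracer with 6 and a ciliated cell of Scgb1a1-TD with 5.

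**Figure D1:**
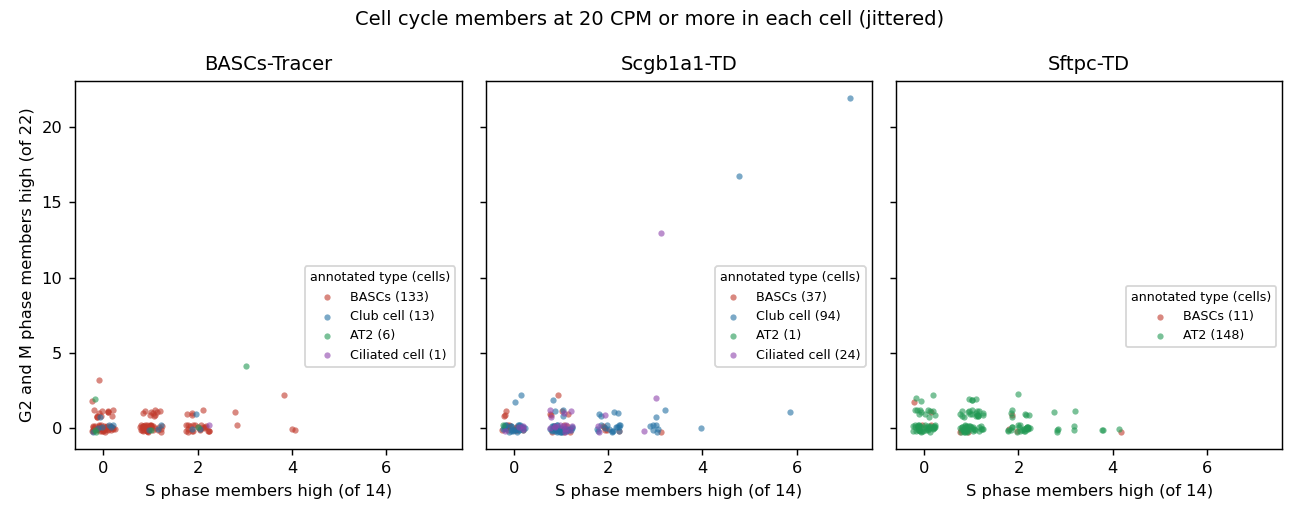
Each point is 1 cell with 100000 reads or more, placed by the number of S phase members (horizontal axis, of 14) and of G2 and M phase members (vertical axis, of 22) at 20 CPM or more, in 3 panels for the lines, coloured by annotated type, with a small random offset so that points can be told apart. In Scgb1a1-TD 2 club cells lie at 22 and 17 G2 and M phase members and 1 ciliated cell at 13, while the highest value among the other cells is 4.

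The first of the 3, called club cell 1 here (plate A3, well B11, 1370539 reads), had all 22 G2 and M phase members and 7 of 14 S phase members high. Club cell 2 (plate A4, well F1, 327687 reads) had 17 and 5 of these high. Division itself was not measured. Both cells carried club cell markers: the 7 club markers summed to 214125 CPM in club cell 1 and 319674 CPM in club cell 2. The 94 annotated club cells of the line with 100000 reads or more, both cells included, had 175906 to 537376 CPM (median 332000). The 7 ciliated markers summed to 1200 CPM in club cell 1 and 888 CPM in club cell 2, beside 1.88 to 3389 CPM (median 290) in the 94. The 8 AT2 markers summed to 4682 CPM in club cell 1 and 3284 CPM in club cell 2, beside a median of 5543 CPM. The 7 leukocyte, 4 endothelial and 3 basal markers were at 0 in both, and of 5 macrophage markers 1 was present in club cell 2, at 150 CPM, and 0 were in club cell 1. Club cell 2 ranked 471 of 480 by genes detected (3547 genes) and club cell 1 ranked 25 (6396 genes), so the profile was seen at a low and at a high number of detected genes.

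Among the proteins that copy and untangle chromosomes, Mki67, which coats mitotic chromosomes and is the usual stain for cycling cells (chr7:135689784-135716361), stood at 1382 CPM in club cell 1 and 366 CPM in club cell 2. Top2a, the topoisomerase that untangles sister chromatids (chr11:98992943-99024189), stood at 1833 and 1111 CPM in club cells 1 and 2. For both genes these were the highest and second highest values of all cells. Cyclin A2 (Ccna2), which drives S and G2 phase, was at 349 CPM in club cell 1 and 888 CPM in club cell 2. The cyclins of mitosis, Ccnb1 and Ccnb2, were at 333 and 433 CPM in club cell 1 and at 134.3 and 745 CPM in club cell 2. Their partner kinase Cdk1 (chr10:69335146-69352938) was at 375 CPM in club cell 1 and 314 CPM in club cell 2.

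The mitotic kinases Plk1 and Aurkb were at 339 and 285 CPM in club cell 1, and at 171 and 293 CPM in club cell 2. Birc5 (survivin), which acts with Aurkb at the centromere, was at 322 CPM in club cell 1 and 598 CPM in club cell 2. The cells differed in Nusap1, a spindle protein, which was at 129.1 CPM in club cell 1 against 1624 CPM in club cell 2. They also differed in Cdc20, the activator of the anaphase-promoting complex, at 635 CPM in club cell 1 against 0 in club cell 2. Kif20a, a kinesin of cell cleavage, was at 199 CPM in club cell 1 and 0 in club cell 2. In all, 21 members were high in both club cells, so the cells shared most but not all of the set.

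Of the S phase members, the nucleotide enzymes were high in both club cells. Thymidine kinase Tk1 was at 676 CPM in club cell 1 and 497 CPM in club cell 2, and thymidylate synthase Tyms at 559 and 128.2 CPM. Rrm2, a subunit of ribonucleotide reductase, was at 36.5 CPM in club cell 1 and 491 CPM in club cell 2, and Pcna at 104.3 and 723 CPM. The helicase genes were mostly not seen: Mcm5 and Mcm6 were at 0 in both cells, Mcm7 at 0 in club cell 1 and 12.2 CPM in club cell 2, and Mcm2 at 43.05 CPM in club cell 1 and 0 in club cell 2. Mcm3 was the exception in club cell 1, at 254 CPM, and Mcm4 in club cell 2, at 70.2 CPM. The initiation factor Cdc45, the DNA methylation factor Uhrf1 and cyclin E1 (Ccne1) were at 0 in both, and cyclin E2 (Ccne2) was at 40.9 CPM in club cell 1 and 0 in club cell 2.

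The third cell was annotated as ciliated (plate A3, well H12, 1001147 reads) and had 13 of 22 G2 and M phase members and 3 of 14 S phase members high. It held the largest number of detected genes of all 480 cells, 8865. Its Mki67 count was 2 reads (2.00 CPM), and Ccna2, Birc5, Ube2c, Nusap1 and Bub1b were at 0. Cdk1 was at 449 CPM and Cdc20 at 1041 CPM, the highest values of any cell, with Top2a at 551 CPM, Ccnb2 at 307 CPM, Ccnb1 at 236 CPM and Plk1 at 58.9 CPM. Among S phase members Mcm3 was at 79.9, Rrm2 at 41.95 and Pcna at 28.97 CPM, and Tyms, Tk1 and Mcm2 were at 0. The 7 ciliated markers summed to 7488 CPM, inside the range of 2371 to 20913 CPM of the 24 ciliated cells of the line, and the 7 club markers to 1870 CPM, the lowest value of those 24 cells. Its 4 endothelial markers summed to 2.997 CPM, and its leukocyte, macrophage and basal markers were at 0. No doublet caller was run, and whether this well held 1 cell was not tested.

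**Figure D2:**
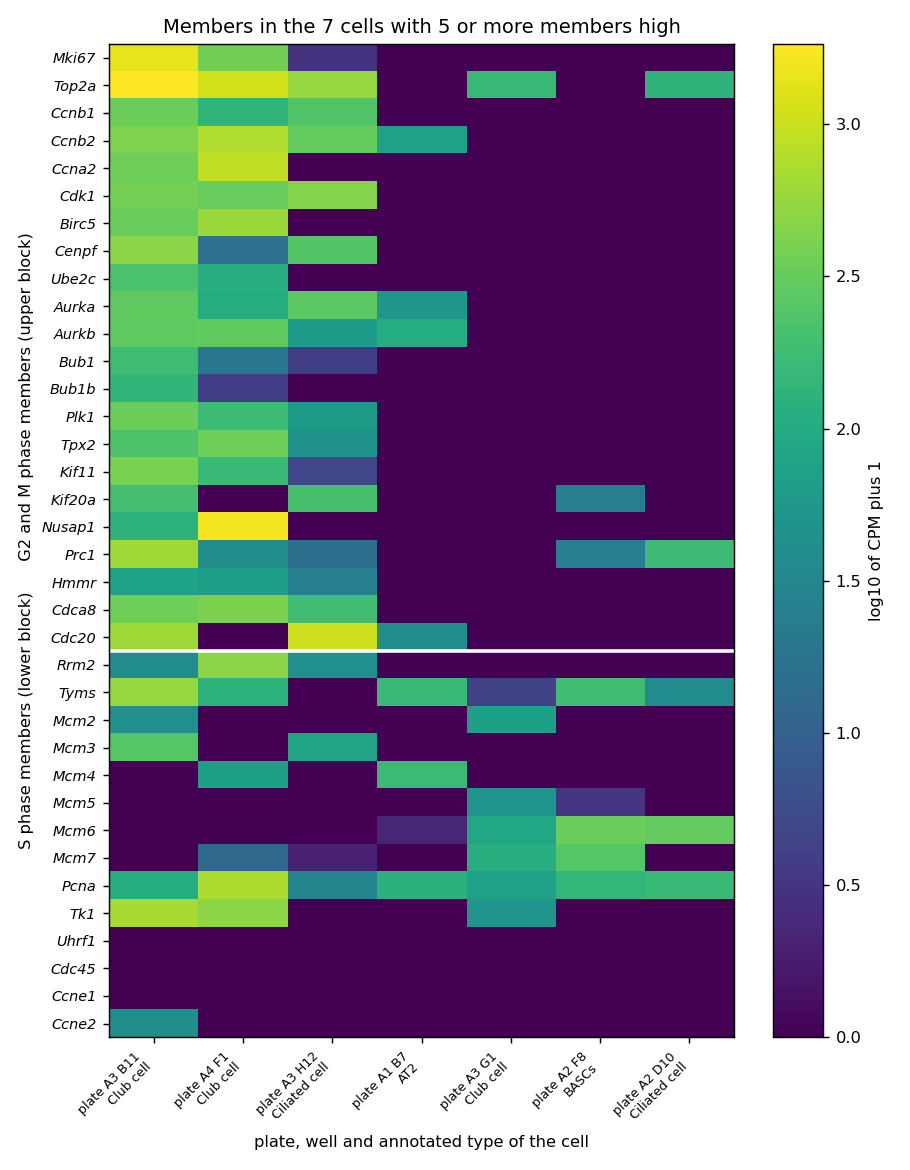
Colour gives log10 of CPM plus 1 for the 36 members (rows, G2 and M phase above the white line and S phase below it) in the 7 cells with 5 or more members high (columns, with plate, well and annotated type). The upper block is filled in the first club cell, mostly filled in the second and partly filled in the ciliated cell, where Mki67, Ccna2, Birc5 and Nusap1 are at or near 0; the other 4 cells hold scattered members.

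Of the 36 members 12 were high in all 3 cells. The ciliated cell differed most plainly from both club cells in 7 members, Mki67, Ccna2, Birc5, Ube2c, Nusap1, Tyms and Tk1, each at 100 CPM or more in both club cells and at 2.00 CPM or less in the ciliated cell. These 7 were picked out after their values were seen. Of the 7, 6 had a promoter in the RefSeq table, and the CHR letters and a CCAAT box were both in 2 of these, Mki67 and Ube2c, and neither was in the other 4 (Birc5, Nusap1, Tk1 and Tyms). Of the 12 members high in all 3 cells, 10 had a promoter there, and the CCAAT box was in all 10 and the CHR letters in 7. Both sets were chosen by their values in 3 cells, so these counts are a description.

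Maturing multiciliated cells use a known set of cell cycle relatives, among them Mcidas and Gmnc, which start the programme, Ccno, Deup1, Plk4 and Stil, which act in centriole multiplication, Cdc20b, and the factors Myb and Trp73. Of this list of 12 genes, 11 were high in the ciliated cell of well H12, and the largest number in any other cell was 6, reached by 2 ciliated cells. Deup1 was at 2029 CPM in the well H12 cell, against 0 to 533 CPM (median 0) in the 24 other ciliated cells. Mcidas was at 704 CPM, against 0 to 4.64 CPM, and Cdc20b at 461 CPM, against 0 in all 24. Ccna1, a cyclin A paralogue, was at 1338 CPM, against 0 to 459 CPM. Gmnc was at 0, against 0 to 370 CPM in the others. Myb and Trp73 were also common in the other ciliated cells, high in 19 and 14 of 24. The kinase inhibitor Cdkn1a was at 979 CPM and the p53 target Mdm2 at 386 CPM in this cell. Other ciliated cells had up to 1312 CPM of Cdkn1a and up to 1043 CPM of Mdm2, so neither gene sets it apart. In club cells 1 and 2, 2 and 1 of the 12 genes were high: Plk4 was at 83.2 CPM in club cell 1 and 61.03 CPM in club cell 2, and Stil at 99.2 CPM in club cell 1 and 0 in club cell 2. Gmnc was at 12.4 CPM in club cell 1 and 0 in club cell 2, and the other 9 genes were at 0 in both.

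The 24 other ciliated cells held few members. Of these, 4 had no member high, 10 had 1, 7 had 2, 2 had 3 and 1 had 5. Top2a was high in 3 of them at 131.4, 133.1 and 263 CPM, with 0 reads of Cdk1 and Ccnb1 in these 3, so that Top2a stood at 15.03 CPM pooled over the ciliated cells of Scgb1a1-TD without the well H12 cell, against 2.14 CPM over the club cells of that line without the 2 club cells.

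**Figure D3:**
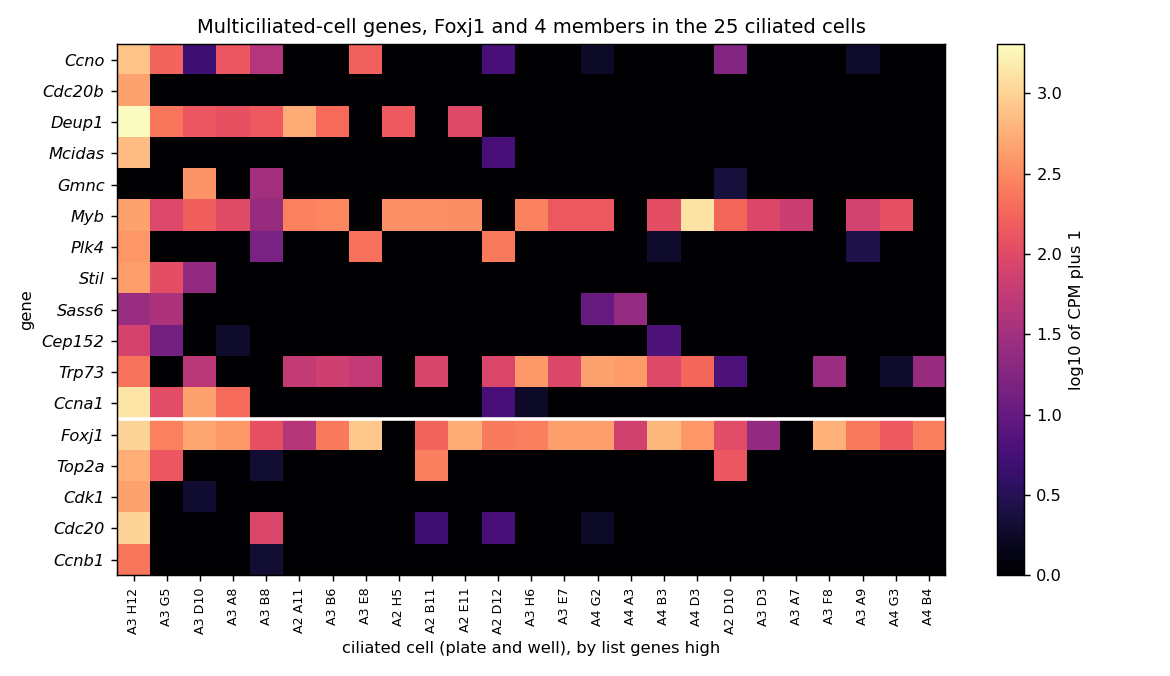
Colour gives log10 of CPM plus 1 for 12 genes of maturing multiciliated cells (above the white line), the ciliated factor Foxj1 and 4 members (below it) in the 25 annotated ciliated cells (columns, named by plate and well), ordered by how many of the 12 genes are high. The first column, plate A3 well H12, has 11 of 12 genes high and all 4 members, and no other column has more than 6 of the 12.

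The other genes of the cycle, from lists not drawn from the members, were high in the same 3 cells. Of 46 further G2 and M phase genes, 43 were high in club cell 1, 31 in club cell 2 and 30 in the well H12 cell, against 1 to 11 in every other cell. Of 34 further S phase genes, 12, 14 and 12 were high in these 3 cells, against 0 to 8 in every other cell. The G1 cyclins, kinases and E2F genes gave 11, 4 and 10 of 21, against at most 9 elsewhere, and the kinase inhibitors and Rb family 9, 3 and 9 of 18, against up to 12 elsewhere, so these 2 lists set the 3 cells apart little or not at all. Foxm1, the G2 activator, was at 64.2 CPM in club cell 1, 0 in club cell 2 and 58.9 CPM in the well H12 cell, and was high in 3 of 468 cells. B-Myb (Mybl2) was at 0 in all 3, and both genes were picked out after their values were seen.

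The genes whose log2(CPM + 1) followed the mean of the members most closely over the 468 cells, out of 12403 genes compared, were Ckap2l (r = 0.76), Cenpe (0.72), Racgap1 (0.67), Knl1 (0.64), Cenpa (0.62) and Neu3 (0.61). They were followed by Knstrn, Brip1, Ncapg, Stil, Kif20b, Cdkn3, the histone gene Hist1h2ae, Ckap2, Ube2t, Ect2, Nsl1, Espl1, Anln and Tacc3. The 20 closest genes had r of 0.45 to 0.76, and 14 of them stood in one of the gene lists. Ckap2l, a spindle protein, was at 501 CPM in club cell 1, 189 CPM in club cell 2 and 549 CPM in the well H12 cell. Without these 3 cells the same 20 genes had r of -0.04 to 0.15, so their likeness rests on these cells. The 20 genes were picked with the 3 cells included, so part of this fall follows from the choice. Without the 3 cells the highest r of any gene compared was 0.28. Cells share library preparation and differ in depth, and no p-value is given.

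Most reads of the G2 and M phase members came from the 3 cells. For 17 of 22 G2 and M phase members and 0 of 14 S phase members, over 50% of all reads in the 480 cells lay in these 3. The share was 98.8% for Plk1, 97.7% for Ccnb1, 95.3% for Mki67, 81.3% for Top2a, 78.3% for Ccna2, 73.6% for Birc5 and 72.9% for Cdk1. The 5 G2 and M phase members below that mark were Ccnb2 (38.8%), Cdc20 (38.4%), Bub1b (26.7%), Prc1 (17.8%) and Bub1 (5.08%).

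**Figure D4:**
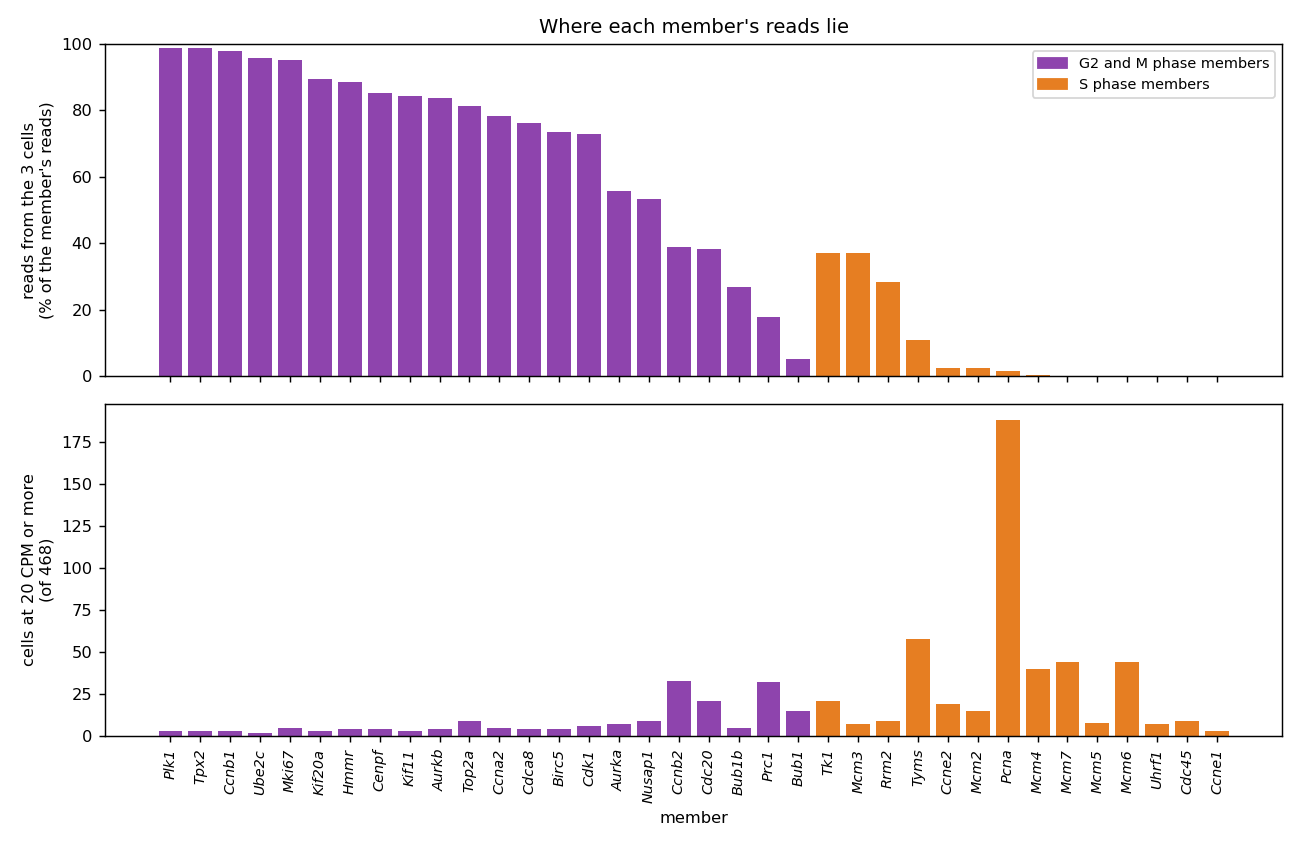
The upper bars give the percentage of each member's reads that lie in the 3 cells with 12 or more members high, and the lower bars the number of the 468 cells in which the member is at 20 CPM or more, for 22 G2 and M phase members (purple) and 14 S phase members (orange). The bars are high above and low below for most G2 and M phase members; Pcna, high in 188 cells, has 1.41% of its reads in the 3 cells.

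The 5 exceptions were high in single cells without the rest of the set. Bub1, a kinase of the spindle checkpoint, was high in 14 cells other than the 3, with up to 679 CPM. Pooled over the cells of a group it was at 6.004 CPM in the BASCs of BASCs-Tracer, 10.3 CPM in those of Scgb1a1-TD and 18.99 CPM in the AT2 cells of Sftpc-TD. Prc1, which bundles spindle microtubules, was high in 30 other cells with up to 751 CPM, and Ccnb2 in 30 other cells with up to 231 CPM. Cdc20 was high in 19 other cells with up to 565 CPM. In each of these 4 cases the median number of further members high in those cells was 1. Bub1b, a second spindle checkpoint kinase, was high in 4 other cells with up to 298 CPM. The gene bodies of Cdc20 and Prc1 overlap genes on the opposite strand. These are Elovl1 with 447874 reads, and Rccd1 and 6330403N20Rik with 3097 reads together. Further members overlap such genes, among them Ccna2 (Exosc9, 7649 reads), Kif20a (Cdc23, 7653), Ccne2 (Ints8, 8113), Cdca8 (9930104L06Rik, 2332) and Tk1 (Afmid and Gm20708, 793 together). Nusap1 overlaps 2 genes with 1096 reads together, 1 of them on the opposite strand. Whether the counting used strand is not given in the sources used here, so reads of these pairs cannot be told apart.

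Pooled over the 477 cells outside these 3, 14 of the 22 G2 and M phase members were under 1 CPM. The other 8 were Top2a, Ccnb2, Aurka, Bub1, Bub1b, Nusap1, Prc1 and Cdc20, up to 9.62 CPM for Bub1. The BASCs of BASCs-Tracer held 0 reads of Ccnb1 and of Plk1 among 106587371 reads. This allows up to 0.0281 CPM by the counting of reads alone, and does not cover the spread between cells. Pooled over those BASCs, Ccna2 was at 0.0563 CPM and Aurkb at 0.00938 CPM. Birc5 was at 1.34 CPM there, with 97.9% of its reads in 1 cell that reached 76.8 CPM. Over the club cells of Scgb1a1-TD without club cells 1 and 2, Ccnb1 was at 0.0419 CPM, Plk1 at 0.0314 CPM and Ccna2 at 0.0628 CPM. Cdca8, which works with Aurkb and Birc5, had 47.1 CPM over the 6 AT2 cells of BASCs-Tracer, all of it from 1 cell at 301 CPM.

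Mki67 was read in 26 of 480 cells, and 2014 of its 2115 reads (95.2%) came from club cells 1 and 2. It reached 10 CPM in 6 cells of sufficient depth. The other 4 were a club cell of Scgb1a1-TD at 47.1 CPM, AT2 cells of Sftpc-TD at 30.6 and 27.4 CPM, and a BASC of Sftpc-TD at 13.5 CPM. In these 4 cells 1 to 3 other members were high, against 28 in club cell 1 and 21 in club cell 2. The remaining 20 cells held 1 to 4 Mki67 reads, 15 of them a single read. On plate A3, 4 of 11 wells in the row of club cell 1 held a Mki67 read, against 1 of 76 wells outside its row and column. The well H12 cell with its 2 reads is not counted there. On plate A4 the counts were 4 of 11 in the row of club cell 2 against 0 of 77. On the other plates, 7 of 28 wells in the column of club cell 1 held a Mki67 read, against 7 of 307 outside its row and column. For club cell 2 these counts were 4 of 28 and 12 of 306. The club cell at 47.1 CPM (plate A2, well F11) and the BASC at 13.5 CPM (plate A5, well A11) lie in the column of club cell 1. The AT2 cell at 27.4 CPM (plate A5, well D1) lies in the column of club cell 2. The AT2 cell at 30.6 CPM (plate A5, well A9) lies in neither column.

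Rows and columns were compared in the same way for all members that were abundant in these cells. For the 26 members with 100 reads or more in club cell 1, counts of 1 to 3 reads made up 17.1% of values in the other wells of its row, 6.04% in its column and 2.33% elsewhere on the plate. For the 12 such members of club cell 2 the shares were 28.03%, 10.7% and 2.27%, and for the 9 of the well H12 cell 20.2%, 7.94% and 2.49%. Values of 20 CPM or more made up 3.85% in the row of club cell 1 and 2.99% elsewhere on its plate, 6.06% and 4.55% for club cell 2, and 3.03% (3 values) and 1.17% for the well H12 cell. On the other plates the row of the same letter gave 3.61%, 3.30% and 3.01% for the 3 cells. The column of the same number gave 5.36%, 7.44% and 5.95% there, against 3.37%, 3.89% and 2.39% outside that row and column. Counts of 1 to 3 reads were thus more frequent in the rows of these cells on their own plates, and less strongly in their columns on all plates. The source of those reads was not tested.

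Among S phase members, Pcna, the sliding clamp that also serves DNA repair, was the most widely read. It was high in 188 of 468 cells (40.2%), and per kilobase of exon it had the highest pooled level of the 36, 24.5 CPM per kb. Pooled over the cells of each group, Pcna stood at 69.7 CPM in BASCs of BASCs-Tracer (Poisson 95% interval 68.2 to 71.3). The BASCs of the Scgb1a1-TD line had 51.9 CPM, and those of the Sftpc-TD line 53.8 CPM. The AT2 cells of that line had 64.3 CPM. In the Scgb1a1-TD line ciliated cells stood at 45.6 and club cells at 42.9 CPM, and the club cells among BASCs-Tracer at 21.95 CPM. The 6 AT2 cells of BASCs-Tracer gave 169.6 CPM, with 63.99% of the reads from 1 cell. The share of cells with Pcna high was 36.8% of BASCs of BASCs-Tracer (28.6 to 45.6%), 43.9% of AT2 cells of Sftpc-TD (35.8 to 52.3%) and 43.6% of club cells of Scgb1a1-TD (33.4 to 54.2%). The pseudogenes Pcna-ps1 and Pcna-ps2 held 1852 reads, and reads may be shared between these copies.

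Tyms was high in 58 cells, Mcm6 and Mcm7 in 44 each, and Mcm4 in 40. Cells with one of these high had a median of 1 other member high. The helicase subunits Mcm2 to Mcm7 act together as a ring of 6 different proteins. Of the 465 cells of sufficient depth outside the 3, 335 had none of the 6 subunit genes high, 19 had 2, 1 had 3 and 1 had 4, and the rest had 1. The largest number of S phase members high in a cell outside the 3 was 6, in a club cell of Scgb1a1-TD (plate A3, well G1, 1228829 reads). That cell had Mcm7 at 109.05, Mcm6 at 86.3, Pcna at 73.2, Mcm2 at 69.99, Tk1 at 49.6 and Mcm5 at 48.8 CPM, with Top2a at 158.7 CPM as its single G2 and M phase member and Mki67 at 0. Of the 34 further S phase genes 5 were high in it. Pooled Mcm6 was 23.8 CPM in the BASCs of BASCs-Tracer, 14.8 CPM in the AT2 cells of Sftpc-TD and 11.9 CPM in the club cells of Scgb1a1-TD, and pooled Mcm7 was 11.8, 20.5 and 13.2 CPM in the same order. Mcm2 was at 10.1 CPM in BASCs of BASCs-Tracer, 4.65 CPM in the AT2 cells and 5.197 CPM in the club cells, with 43.3%, 45.7% and 60% of those reads in 1 cell each. Mcm7 overlaps 5 other genes, 2 of them on the opposite strand.

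Uhrf1 had 0 reads in all 97 club cells of Scgb1a1-TD, which allows up to 0.0309 CPM by the counting of reads alone. It had 14.5 CPM pooled in the 24 ciliated cells of the line, where 3 cells were high with up to 406 CPM. Taking 3 counts over the club cells as the floor, the pooled value was 470.5-fold higher in ciliated cells, and 41.2% of the ciliated reads came from 1 cell. Amplified reads are not independent and the spread between cells is not covered, so this is no lower bound on the difference between groups. Cdc45 reached 1191 CPM in a single BASC of BASCs-Tracer, which gave 70.1% of the 10.6 CPM pooled in that group. Cdc45 overlaps Ufd1 on the opposite strand, which held 29654 reads, so reads of this pair cannot be told apart either. Ccne1 was read in 9 cells and high in 3, and Ccne2 in 49 and 19.

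Levels of whole groups were then compared in 6 pairs, as log2 ratios of pooled CPM with 1 CPM added, for members with 1 CPM or more over all cells. Of the 36 members 32 passed this filter, and Ube2c, Tpx2, Hmmr and Ccne1 did not; the filter uses all cells together, so a member high in 1 group alone can pass through it. When BASCs of BASCs-Tracer were set against club cells of Scgb1a1-TD, 1 of 32 members was 2-fold or more higher and 21 were 2-fold or more lower, beside 19.1% and 15.1% of all 14429 genes. The single higher member was Cdc45, which shares its locus with the antisense gene Ufd1, at 10.6 CPM in BASCs and 3.45 CPM in club cells. The median was -1.52, beside 0.06 over all genes. Mki67 was at 0.0375 CPM in those BASCs and 21.05 CPM in the club cells, Top2a at 0.159 and 31.7 CPM, and Cdk1 at 0.0375 and 7.93 CPM. Without the 3 cells with many members high the median was 0.01, and the club cells stood at 0.325 CPM for Mki67, 2.14 CPM for Top2a and 1.61 CPM for Cdk1. The lower median in BASCs thus rests on these cells, of which 2 are in this pair. The groups share plate A2 alone, and among the cells of that plate the median was 0.13, so elsewhere plate and group cannot be told apart.

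Within Scgb1a1-TD, BASCs against club cells gave 2 of 32 members higher (Bub1 and Uhrf1) and 24 lower, beside 15.1% and 26% of all genes. The median was -2.28, and -0.02 without the 3 cells. By phase, over all 36 members, the medians without these cells were -0.0075 for G2 and M phase and -0.59 for S phase (-2.58 and -1.49 with them). Of the S phase members, Mcm4, Mcm2, Mcm5, Cdc45 and Ccne2 stayed 2-fold or more lower. So did Prc1 (-2.06), Top2a (-1.48), Cdk1 (-1.31) and Cenpf (-1.08) of the G2 and M phase members. Bub1 and Uhrf1 stayed higher. Club cells of BASCs-Tracer against club cells of Scgb1a1-TD gave 1 higher (Mcm3) and 24 lower, beside 15.6% and 32.2%, with a median of -2.52 that became -0.09 without the 3 cells and 0.00 within plate A2. Without the 3 cells the medians of that pair were -0.07 for G2 and M phase and -0.59 for S phase (-2.61 and -1.19 with them). Ciliated against club cells within Scgb1a1-TD gave 6 higher and 12 lower, beside 33.7% and 18.4%, with a median of -0.07, and -0.0033 without the 3 cells. Of the 6 higher, Aurka, Cdk1, Kif20a and Cdc20 were within 2-fold or lower without the 3 cells, and Rrm2 and Uhrf1 were not. These 4 comparisons share the club cells of Scgb1a1-TD.

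The other 2 pairs held none of the 3 cells. BASCs of BASCs-Tracer against AT2 cells of Sftpc-TD gave 3 of 32 members higher (Birc5, Mcm5 and Cdc45) and 9 lower, beside 10.9% and 11.1% of all genes, with a median of -0.10. These groups share no plate, so line and plate cannot be told apart. BASCs against club cells within BASCs-Tracer gave 10 higher and 4 lower (Mcm4, Mcm3, Ccna2 and Tyms), beside 35.8% and 15.5%, with a median of 0.20 beside 0.38 over all genes. In that pair 13 of the 32 members were at 0 in one of the groups, and with these set to 3 counts the median was 0.08.

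**Figure D5:**
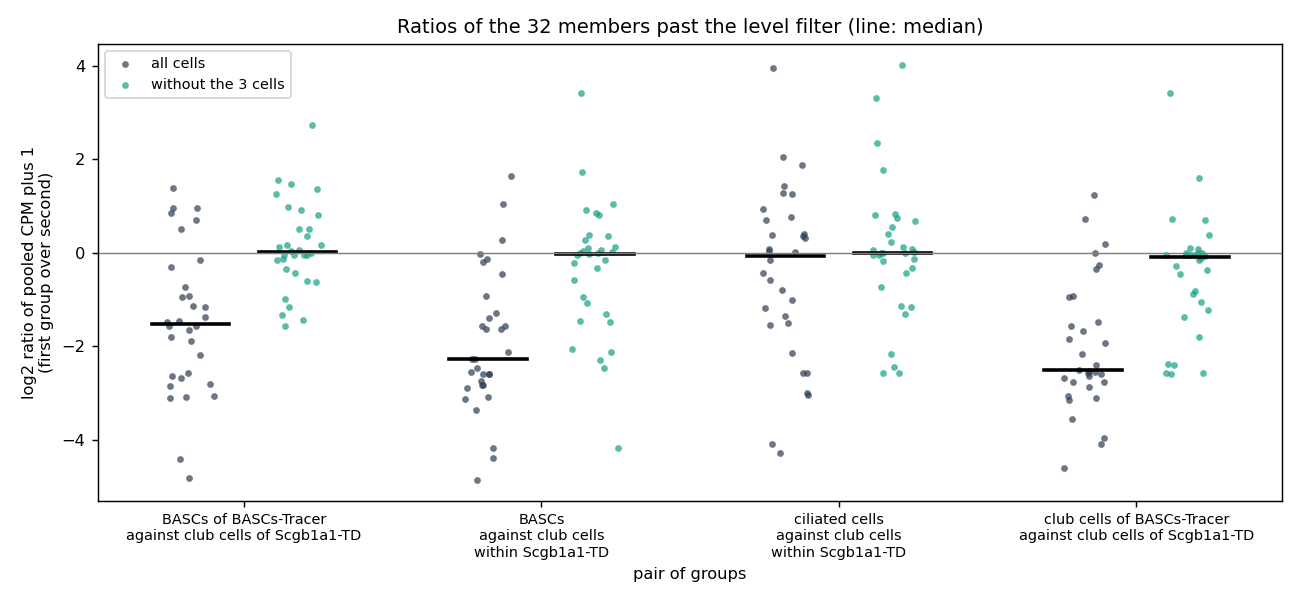
Each point is the log2 ratio of pooled CPM plus 1 (first group over second) of 1 of the 32 members past the level filter, for the 4 pairs that include a cell with many members high, with all cells (dark) and without those 3 cells (green); horizontal lines are medians. The medians move from -1.52, -2.28, -0.07 and -2.52 with all cells to between -0.09 and 0.01 without the 3 cells.

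The sum of the 22 G2 and M phase members shows the same. It was 28.5 CPM in BASCs of BASCs-Tracer, 31.8 CPM in BASCs of Scgb1a1-TD, 20.8 CPM for the BASCs and 52.4 CPM for the AT2 cells of Sftpc-TD. It was 198 CPM in ciliated and 180.1 CPM in club cells of Scgb1a1-TD. Without the 3 cells these sums were 31.5 CPM in the ciliated and 19.4 CPM in the club cells. The median single cell of each of these groups had 0 to 1.13 CPM. The sum of the S phase members without Pcna was 85.4 CPM in BASCs of BASCs-Tracer, 45.8 CPM in those of Scgb1a1-TD, 81.5 CPM for the BASCs and 84.9 CPM for the AT2 cells of Sftpc-TD. In Scgb1a1-TD it was 109.7 CPM in ciliated and 111.7 CPM in club cells, or 109.1 and 86.5 CPM without the 3 cells. Per cell the median of that sum was 125.2 CPM in ciliated cells of Scgb1a1-TD, 33.2 CPM in club cells of the line, 3.54 CPM in the BASCs of BASCs-Tracer and 2.79 CPM in the AT2 cells of Sftpc-TD. The median depths of these 4 groups were of 990495, 1082690, 775502 and 1114310 reads. In ciliated and club cells of Scgb1a1-TD the reads were thus spread over more cells. Among club cells from BASCs-Tracer the median of that sum was 4.07 CPM.

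Other cycle genes from the lists were read in every group. The G1 cyclin Ccnd1 stood at 82.8 CPM in BASCs of BASCs-Tracer, 87.2 CPM in AT2 cells of Sftpc-TD and 282 CPM in the Scgb1a1-TD club cells. Its relative Ccnd2 stood at 55.9, 57.5 and 44.6 CPM in the same order of groups. The kinase Cdk4 stood at 183 CPM in ciliated cells against 85.1 CPM in club cells of Scgb1a1-TD. The antiproliferative gene Btg2 stood at 621 CPM in BASCs of BASCs-Tracer, 641 CPM in AT2 cells of Sftpc-TD, 2845 CPM in ciliated cells and 760 CPM in club cells of Scgb1a1-TD. The kinase inhibitor Cdkn1a stood at 255 CPM in BASCs of BASCs-Tracer, 231 CPM in AT2 cells of Sftpc-TD, 416 CPM in ciliated cells and 40.5 CPM in club cells of Scgb1a1-TD. Geminin (Gmnn), which blocks re-licensing of replication, stood at 7.02 CPM in BASCs of BASCs-Tracer, 5.56 CPM in AT2 cells of Sftpc-TD and 80.2 CPM in club cells of Scgb1a1-TD. Of the 46 further G2 and M phase genes 18 reached 20 CPM in a group of 5 or more cells, with Tuba1b, H2afz, Bub3 and Stmn1 highest, and of the 34 further S phase genes 15 did, with Rfc2, Slbp, Gmnn and Nasp highest. Of the G1 list 13 of 21 genes reached 20 CPM, of the inhibitor and Rb list 14 of 18, and of the multiciliated list 9 of 12. Without the 3 cells these counts were 15 of 46 (without Ckap2l, Cks1b and Spc24) and 6 of 12 (without Cdc20b, Mcidas and Stil), and the other 3 were as before. Rfc2, a subunit of the clamp loader, stood at 292 CPM in ciliated cells of Scgb1a1-TD against 23.8 CPM in the club cells of this line, and the tubulin gene Tuba1b at 852 CPM against 160 CPM. Mdm2 stood at 345 CPM in ciliated cells against 50.5 CPM in club cells of the line. Myb stood at 184 CPM, Deup1 at 137.6 CPM, Trp73 at 107.5 CPM and Ccna1 at 97.3 CPM in the ciliated cells of Scgb1a1-TD. The well H12 cell gave 67.03% of the Deup1 and 62.6% of the Ccna1 reads, and without it the 4 genes stood at 171, 47.5, 102.1 and 38.1 CPM in the same order.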

How the data were processed

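Single lung cells had been sorted, reverse transcribed with SuperScript II, amplified with KAPA HiFi and made into Nextera XT libraries, per the labels' protocols. The deposited table holds the authors' raw counts of reads per Ensembl gene (53379 genes, 480 cells); HISAT2, HTSeq and build GRCm38 are named, per the submitters' processing notes, but no version or strand setting (not given in the sources used here). Amplified reads carry no molecular identifiers.

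The table's header has no name over the gene IDs, so each name was taken for the count column of the same rank. Gene symbols and positions came from GENCODE M21 (53274 IDs matched). Groups are line by annotated sub-type. Reads were scaled to 1e6 gene-assigned reads (CPM) per cell, or pooled per group, and log2 ratios were taken after adding 1 CPM, for genes with 1 CPM or more over all cells. Poisson and Clopper-Pearson intervals are at 95%, and a group with 0 reads of a gene is given 3 counts as its limit. Per group, total reads were 4994192 to 192171985 for groups of 5 or more cells. No cell shared a plate and well with another. No doublet caller was run. The ratio step was tested on simulated data.

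The members and all gene lists were chosen with earlier results of these data known. Named in full were the best-known members by role, members at 50 CPM or more in a group, the 20 genes most correlated with the members' mean, and up to 4 genes per list at 20 CPM or more. The lists are the S phase and G2 and M phase members, further genes of both phases, G1 and E2F genes, kinase inhibitors with the Rb family, and cell cycle relatives of multiciliated cells. Alternatives changed the high level, the number of members, depth, scaling, added CPM, filter, cells and plates. Python 3.11.15, numpy 2.4.6, pandas 2.3.3, scipy 1.17.1 and matplotlib 3.10.9 were used.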

Additional observations from a re-analysis of the deposited data

Results flagged for a closer look

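The median log2 ratio of the members had opposite signs in the 2 lines that hold both types, in BASCs against club cells: 0.20 within BASCs-Tracer (15 club cells) and -2.28 within Scgb1a1-TD (97 club cells). Over all genes the medians were 0.38 and -0.16, so with all cells the members lay below the median of all genes in both lines. Within BASCs-Tracer 13 of the 32 members were at 0 in one of the groups, and with these set to 3 counts the median was 0.08. The difference between the lines was not tested, since each line is 1 sample. Without the 3 cells with many members high, the median within Scgb1a1-TD was -0.02, and -0.59 for the S phase members. BASCs-Tracer holds no such cell.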

How the results depend on the processing

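Of 65 alternatives to the 6 median ratios, 49 stayed within 1.5-fold of the main value, 14 moved further and 2 turned from a 2-fold difference to the other sign. Of the 49, 2 also crossed 0: without plate A4, BASCs of BASCs-Tracer against AT2 cells gave 0.0040 (-0.10 with it) and ciliated against club cells 0.11 (-0.07 with it). With BASCs of BASCs-Tracer set against club cells of Scgb1a1-TD (-1.52), the median was -0.55 with 10 CPM added, -0.60 without the top cell of each group, -2.15 without plate A2 and -0.88 without plate A3; it turned to 0.13 within plate A2 and 0.0080 without the 3 cells with many members high. For BASCs against club cells within Scgb1a1-TD (-2.28), it was -0.57 with 10 CPM added, -1.14 without the top cells, -1.57 without plate A3 and -0.023 without the 3 cells. For club cells of BASCs-Tracer against club cells of Scgb1a1-TD (-2.52), it was -0.59, -0.94, -1.48 and -0.095 under the same changes and 0 within plate A2. For ciliated against club cells it was -1.25 without plate A3, which holds the well H12 cell and club cell 1, and -0.07 with it. All alternatives for the other 2 pairs stayed within 1.5-fold. Leaving out the 3 cells was chosen after seeing the data. A larger added value draws ratios towards 0 by construction. Leaving out cells or plates moved the medians in either direction, and the cause was not tested.

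Asking for 6 members in place of 12 gave 6 cells over all lines and 2 in BASCs-Tracer. Without the cell with most genes detected, a choice made after seeing the data, 2 cells remained past 12 members. Mki67 cells numbered 26 at 1 read and 2 at 50 CPM, in place of 6. Single members at 2-fold changed sign in 70 of 1466 member and alternative combinations and came within 2-fold in 355. No paired analysis was possible because no test was run and the number of a cell, given in accession order, only names it. The number of cells limits shares: 0 of the BASCs of BASCs-Tracer has a Clopper-Pearson upper limit of 2.74%.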

Other observations

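The AT2 cell of BASCs-Tracer with 7 members high (plate A1, well B7) had Mcm4 at 168 CPM, Tyms at 164 CPM and Pcna at 122.6 CPM, and Aurkb at 102.8 CPM, Ccnb2 at 71.8 CPM, Aurka at 52.03 CPM and Cdc20 at 39.6 CPM, with Mki67, Top2a and Cdk1 at 0. Of the further G2 and M phase genes 3 of 46 were high in it, and of the further S phase genes 2 of 34. Its AT2 markers summed to 293208 CPM.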
